A study of Drosophila melanogaster with 12 samples.

Results

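These regions are larval-only EcR peaks that lie close to stable ones. They are sites where a peak of the ecdysone receptor was listed in the fly wing at -6 h but not at +6 h relative to puparium formation. A site listed at both stages lies nearby. The members are the peaks of the -6 h list that share no base with any peak of the +6 h list and whose nearest edge lies within 10 kb of a -6 h peak that does overlap one. The rule took 1437 of the 4965 peaks at -6 h, and they are called near peaks here. The other larval-only peaks, 2747 regions, lie farther away and are called far peaks. The 781 peaks at -6 h that overlap a +6 h peak are called stable peaks, and the +6 h list holds 1210 peaks.

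The study followed wings of Drosophila melanogaster across the change from larva to prepupa with 4 CUT&RUN libraries, 2 at each stage, beside 8 RNA libraries of wild-type and EcR-RNAi wings. The CUT&RUN animals were w/w females raised at 25 degrees, and at both stages they carried the tagged allele EcR[GFSTF] over the deficiency Df(2R)BSC313. The earlier wings were dissected from larvae at the wandering stage and the later ones from animals staged as white prepupae. An antibody against FLAG directed the cleavage of DNA around the tagged receptor. Whole wings were used, so the peaks cannot be split by cell type.

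EcR is a nuclear receptor whose ligand is the steroid ecdysone, and it binds DNA with its partner Usp. A pulse of ecdysone at the end of larval life starts metamorphosis, in which the folded wing disc everts and turns into the prepupal wing. Without hormone the receptor pair can hold target genes off, and with hormone it can turn them on. Large ecdysone-response genes are known for several binding sites spread over their length. No genome of the build of these peaks (dm3) was used here, so no sequence is printed and no gene is tied to a peak.

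Peaks were called on the merged libraries of a stage. Each peak therefore has a single value and no replicate spread, the depth behind it is unknown, and no library from a control antibody or untagged animals was analysed here. Fold enrichment over background and the -log10 q are the authors' values and are used only within a list. Membership was set by presence and absence in these same lists, and regions of a list share their libraries, so all values below are descriptions without a test.

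Near peaks made up 28.9% of the -6 h list and covered 320933 bases, 27.3% of the sequence under its peaks. Their median width was 174 bp, with quartiles of 110 and 289 bp and extremes of 63 and 1474 bp. The whole -6 h list had a median of 175 bp. Far peaks had a median width of 149 bp and stable peaks one of 355 bp. The 415 far peaks out to 20 kb had a median of 173 bp. The width of a near peak went with its enrichment (Spearman rho 0.66 across 1437 peaks of the same libraries).

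The median fold enrichment of near peaks at -6 h was 6.38, with quartiles of 4.93 and 9.00 and extremes of 2.86 and 48.2. Far peaks had a median of 5.51, with quartiles of 4.50 and 7.11. Stable peaks had a median of 15.1, with quartiles of 8.28 and 26.6. Near peaks thus lay between the other classes and closer to far peaks, and the 3 ranges overlapped widely. The median -log10 q followed the same order, at 8.16 for near, 6.10 for far and 33.7 for stable peaks. On the scale of ranks within the -6 h list, the median near peak stood at percentile 53.5, the median far peak at 39.9 and the median stable peak at 89.4.

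**Figure D1:**
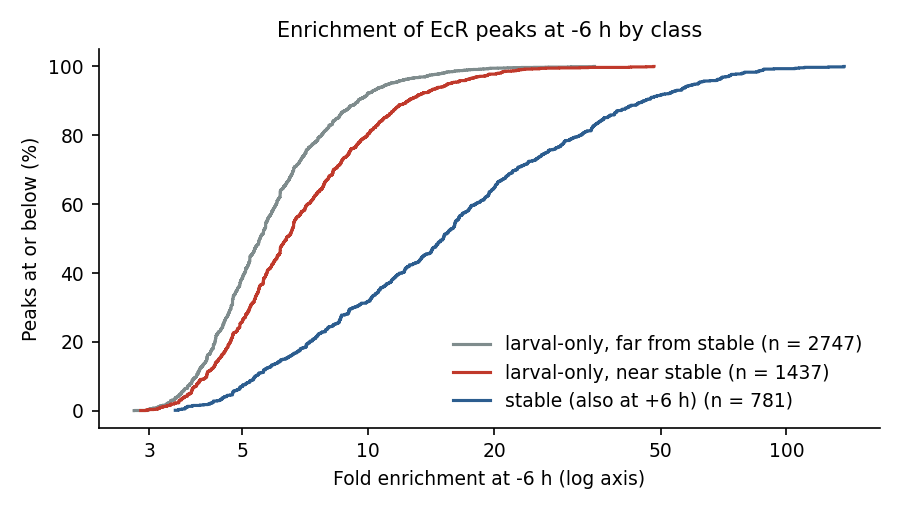
Cumulative share of peaks (percent) by fold enrichment at -6 h (log axis) for the 1437 near, 2747 far and 781 stable peaks. The curve of near peaks runs slightly to the right of that of far peaks, with medians of 6.38 and 5.51, and far to the left of stable peaks, whose median is 15.1.

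Most near peaks were below 10-fold, as was most of the -6 h list. An enrichment of at least 10 was found in 282 near peaks (19.6%), against 213 far peaks (7.75%) and 533 stable peaks (68.2%). The list of 4965 peaks held 706 from 10- to 20-fold, 218 from 20- to 40-fold and 104 at 40-fold or more. The near share at 10-fold or more was thus close to that of the list. At least 20 was reached by 32 near (2.23%), 14 far (0.510%) and 276 stable peaks (35.3%). The median of stable peaks was reached or passed by 84 near peaks (5.85%) and by 53 far peaks (1.93%).

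The class of a -6 h peak went with its enrichment. Among 1481 peaks under 5-fold, 3.71% were stable and 25.0% were near peaks. Among 706 peaks from 10- to 20-fold, 36.4% were stable, 35.4% near and 28.2% far. Of the 104 peaks at 40-fold or more, 100 were stable and the other 4 were near peaks, with no far peak. Among larval-only peaks alone, the near share was 25.9% under 5-fold, 34.7% from 5 to 10, 55.7% from 10 to 20 and 66.7% (28 of 42) from 20 to 40. The larval-only label therefore moved with low enrichment at -6 h, and within it the near class was more enriched than the far class. This was not a steady relation with distance. The 415 far peaks out to 20 kb had a median fold of 6.11, close to the near median of 6.38. Whether weaker signal below the calling threshold was present at +6 h was not tested.

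**Figure D2:**
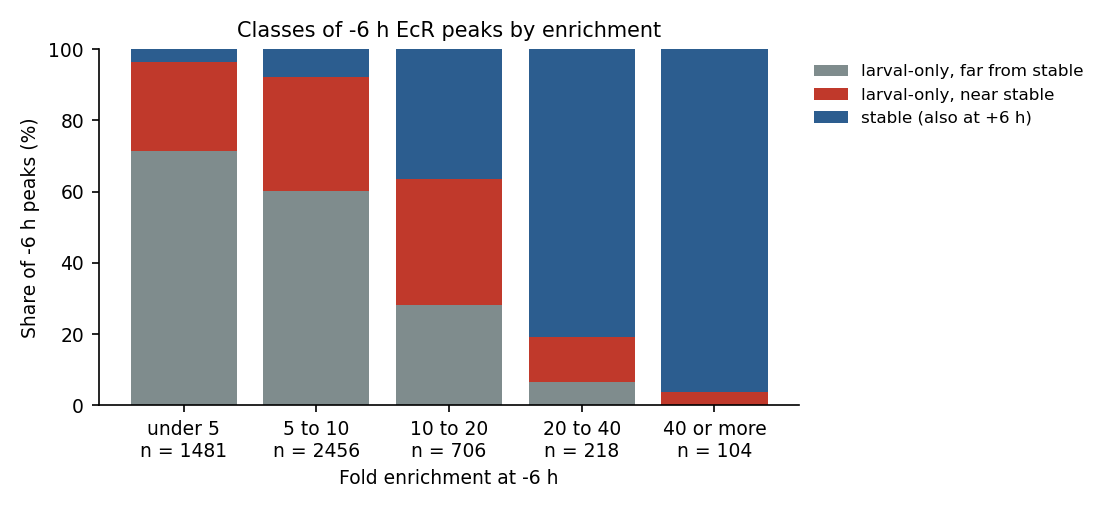
Share of -6 h peaks (percent) that were far, near or stable in 5 ranges of fold enrichment, with the number of peaks under each bar. Near peaks take 25.0% of the lowest range and 35.4% of the range from 10 to 20, and 4 of the 104 peaks in the highest range.

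Near peaks were most frequent at short distances from stable ones inside the 10 kb limit. Their median distance was 2179 bp, edge to edge, with quartiles of 614 and 4836 bp. A distance of at most 500 bp was found for 310 near peaks (21.6%), and one of at most 1000 bp for 490 (34.1%). The number of larval-only peaks per kb of distance was 664 in the first 250 bp, 360 between 500 and 1000 bp, 140.5 between 2000 and 4000 bp and 57.5 between 8000 and 10000 bp. It continued without a break past the limit, at 52.0 from 10000 to 12000 bp and 38.5 from 18000 to 20000 bp. The limit therefore parts a continuous series. Distance was taken to the nearest stable peak, and 858 near peaks (59.7%) had only 1 within 10 kb. No baseline spacing between peaks was set beside these counts.

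**Figure D3:**
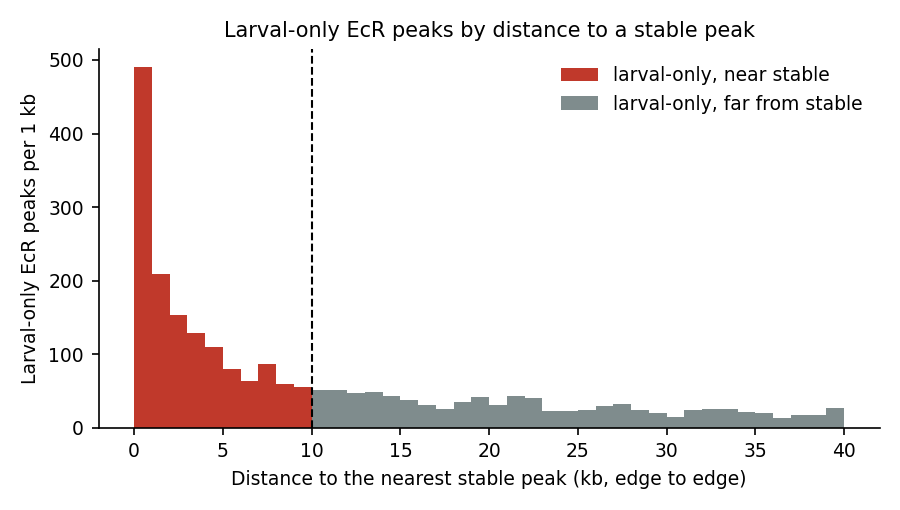
Number of larval-only EcR peaks in each kb of distance (kb, edge to edge) from the nearest stable peak, up to 40 kb. The bars fall steeply inside the dashed 10 kb line, where 490 peaks lie within the first 1000 bp, and go on falling slowly beyond it.

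Enrichment changed little with distance inside the limit. The median fold was 6.46 in the first 250 bp, 7.85 from 250 to 500 bp, 6.17 from 500 to 1000 bp and 6.30 from 8000 to 10000 bp. The rank correlation of fold and distance was -0.07 across the 1437 peaks. The 415 far peaks out to 20 kb had a median of 6.11, and the 1661 far peaks beyond 50 kb had one of 5.38. Near peaks from 250 to 500 bp were also the widest, with a median of 222 bp.

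The 5 near peaks just inside the limit lay 9978 to 9997 bp from a stable peak and had folds of 7.05, 4.72, 6.74, 5.50 and 5.40. The 5 far peaks just outside lay at 10014 to 10053 bp, with folds of 4.32, 3.39, 7.85, 6.33 and 3.46. The folds on both sides of the limit overlapped. At the other end, 5 near peaks stood at the lowest distance, 63 bp, which is also the lowest width of the -6 h list. One of them, chrX:1839132-1839742, was 611 bp wide with a fold of 9.49 beside a stable peak of 50.2-fold. Another, chr3L:3514675-3514761, was 87 bp wide with a fold of 3.88 beside a stable peak of 35.2-fold.

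Near peaks were usually weaker than the stable peak they lay nearest to. The stable peak's fold was 2.68 times that of the near peak in the median, with quartiles of 1.56 and 4.51. Stable peaks were the stronger class over the whole list, with a median fold of 15.1 against 6.38. The ratio therefore follows in part from the classes and is not by itself a local relation. The ratio was 2.55 for near peaks within 500 bp and 2.74 for those beyond 2000 bp. In 138 cases (9.60%) the near peak had the higher fold, and in 22 (1.53%) it was at least 2 times as high. Those 22 had a median fold of 13.7 and stood beside stable peaks with a median of 4.89. The rank correlation between a near peak's fold and that of its stable peak was 0.18 across 1437 pairs, in which a stable peak can recur. Summits lay about as often on either side: 51.1% of near peaks had theirs on the side facing the stable peak, 53.5% of those within 500 bp and 46.0% of those beyond 5000 bp.

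Near peaks also lay among more larval-only peaks than far peaks did. The median near peak had 4 other larval-only peaks within 10 kb, with quartiles of 2 and 7, and the median far peak had 2, with quartiles of 0 and 4. At least 5 such neighbours were found for 671 near peaks (46.7%) and 464 far peaks (16.9%). None was found for 82 near peaks (5.71%) and 735 far peaks (26.8%). Enrichment went with this crowding in both classes. Among peaks with no larval-only neighbour the median fold was 5.73 for near and 4.99 for far peaks. Among those with 5 or more it was 6.73 and 6.16. Near peaks had the higher median in each of the 4 ranges of crowding and on each of the 5 large arms, where the closest medians were 6.19 and 5.56 on 2L and the most distant were 6.66 and 5.49 on 3L.

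Arm 3L held the most near peaks. They numbered 442 on 3L, 307 on 3R, 244 on 2L, 243 on X and 201 on 2R, and there were 0 among the 4 peaks of chromosome 4. Near peaks were 40.9% of the larval-only peaks of 3L (95% Wilson interval 38.0 to 43.8) and 27.5% of those of 2R (24.3 to 30.8), with 2L, 3R and X between 32.8% and 34.7%. The intervals of 3L and 2R did not overlap, but they treat clustered peaks as independent and cover counting error only. The share of stable peaks varied less, between 14.4% on 3R and 16.9% on X among the 5 large arms. Near peaks per stable peak numbered 2.04 on 3L and 1.57 on 2R.

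The near peaks were shared out unevenly among the stable ones. Of 781 stable peaks, 272 (34.8%) were the nearest stable peak of no near peak, 169 of 1, 261 of 2 to 4, and 79 of 5 or more. Those 79, 10.1% of stable peaks, took 525 near peaks (36.5%). A stable peak can also have near peaks within 10 kb that lie closer to another stable peak, as did 148 of the 272, so stable peaks were also grouped by the near peaks present within 10 kb, a grouping added after seeing the data.

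Stable peaks with more near peaks around them had higher folds at -6 h. The median fold was 9.00 for the 124 stable peaks with none within 10 kb, 12.0 with 1, 14.2 with 2 to 4, and 25.5 with 5 or more (253 peaks), with overlapping quartiles. In this grouping a near peak counts for every stable peak within 10 kb of it. Stable peaks of the same cluster therefore share near peaks, and the 253 are not separate cases. Grouped by nearest stable peak, the medians were 11.6 with none, 14.1 with 1, 16.5 with 2 to 4, and 22.1 with 5 or more. The rank correlation of fold with the latter number was 0.21 across 781 stable peaks.

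At +6 h no such order was seen. Each stable peak was given the highest fold of the +6 h peaks that overlap it, as a percentile within the +6 h list, so a broad +6 h peak counts once for each stable peak it covers. With none, 1, 2 to 4, and 5 or more near peaks within 10 kb, the median percentiles were 65.9, 67.2, 61.2 and 64.6. They were 65.4, 66.3, 60.2 and 64.4 with each +6 h peak counted once per group. Stable peaks that were the nearest of no near peak had a median percentile of 73.3 (70.1 with each +6 h peak counted once). The nearest stable peaks of 1, 2 to 4, and 5 or more had medians of 63.1, 58.4 and 66.2. Among those nearest to no near peak, the 148 with near peaks inside 10 kb had a median of 81.1 (77.5 counted once).

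**Figure D4:**
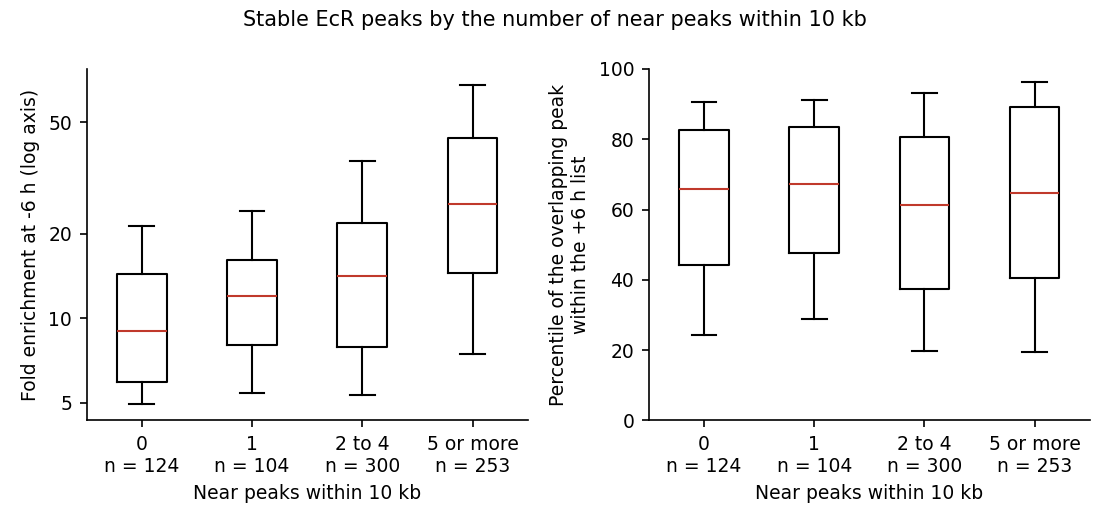
Stable peaks grouped by how many near peaks lie within 10 kb (0, 1, 2 to 4, 5 or more). Left, fold enrichment at -6 h (log axis). Right, percentile of the overlapping peak within the +6 h list. Boxes show quartiles with the median as a line, and whiskers reach the 10th and 90th percentiles. The left medians rise from 9.00 to 25.5, and the right medians lie between 61.2 and 67.2.

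Counting each near peak at its nearest stable peak only, the stable peak with the most was chr3L:18183908-18184283, with a fold of 37.4. It had 13 near peaks, 6 on its left and 7 on its right, all within 4916 bp. Their folds ran from 5.47 to 20.9 with a median of 9.51, and none passed the stable peak. The strongest lay to the right, chr3L:18187922-18188224 at 20.9-fold and chr3L:18186231-18186556 at 20.2-fold. The +6 h peak at this stable site had a fold of 4.46, percentile 40.5 of its list.

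Around chr3L:16167114-16167811, a stable peak of 17.1-fold, 12 near peaks had folds from 3.78 to 11.7, with 8 on the right. The stable peak chrX:3580580-3581097 had 12 near peaks, 9 on the left. At 14.2-fold it was passed by 2 of them, chrX:3571466-3571963 at 20.3-fold and chrX:3583042-3583393 at 15.4-fold. On the same arm, chrX:3636662-3637575 had a fold of 16.1 and 11 near peaks of 4.31- to 12.9-fold. In these 3 places the folds of the stable peak and of its strongest companion lay close together.

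The contrast was larger around chr3L:8050273-8051059. This stable peak was taken as the strongest of the 7 with 9 near peaks each, so a large contrast follows from the choice. It had a fold of 87.9, while its near peaks ran from 3.64 to 15.7 with a median of 5.74. The strongest of these was chr3L:8049438-8049906, only 367 bp away. At +6 h this site was at 20.6-fold, percentile 94.8 of the list. All of its near peaks lay within 5830 bp.

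**Figure D5:**
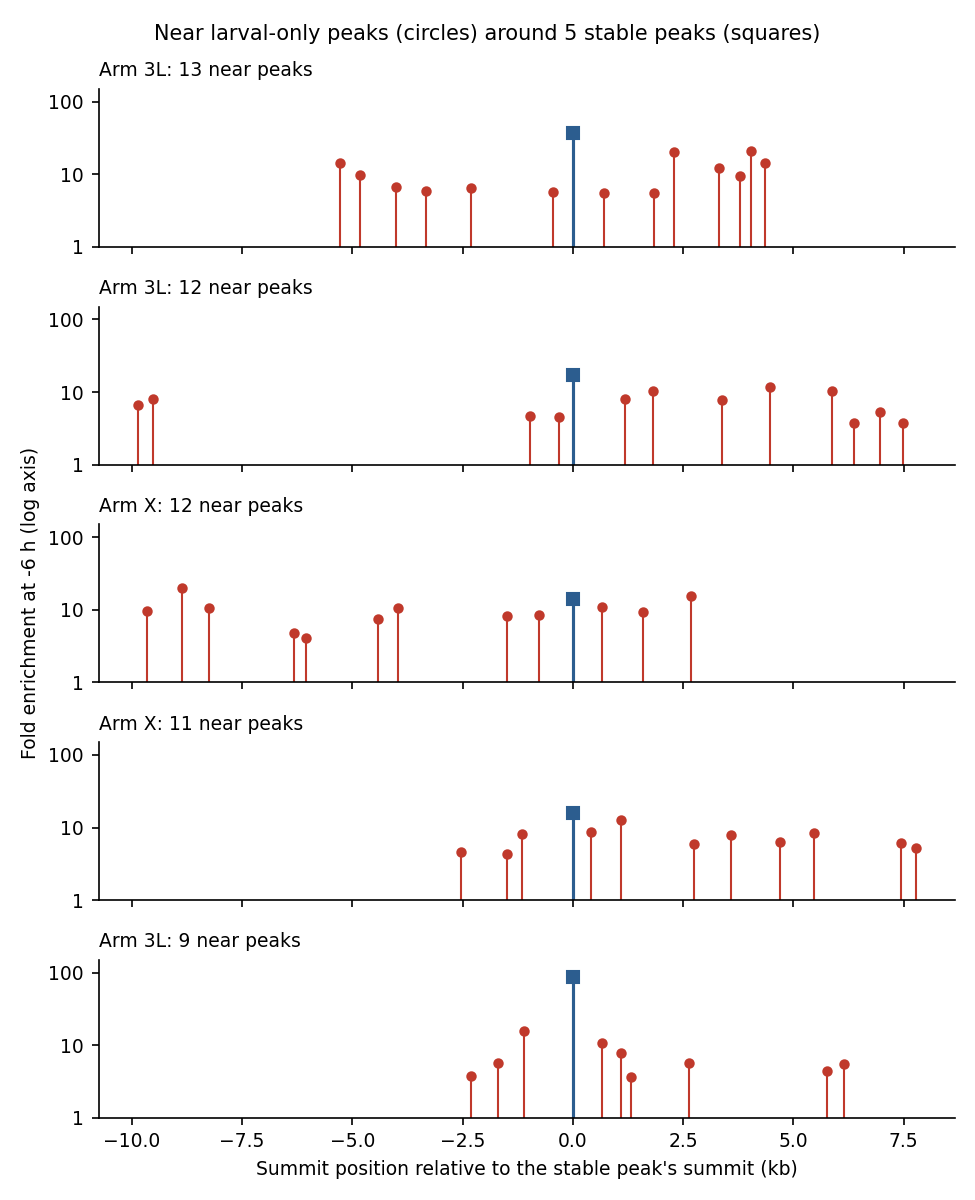
Fold enrichment at -6 h (log axis) of near peaks (circles) and their stable peak (square) against the distance between summits (kb), for the 5 stable peaks that are the nearest one of the most near peaks, the last chosen among 7 equal ones by its fold. Near peaks number 13, 12, 12, 11 and 9 from top to bottom, and circles rise above the square in the upper of the panels of arm X only.

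When near peaks were chained over gaps of at most 10 kb, they formed 362 stretches. A single near peak made up 102 of them, and 23 stretches of 10 or more held 347 near peaks (24.1%). In 301 stretches (83.1%) the strongest of the nearest stable peaks had a higher fold than any near peak of the stretch. This share too follows in part from stable peaks being the stronger class. The next longest runs after the largest were 23 near peaks at chr3L:16157388-16209134, with 4 stable peaks inside, and 19 on arm 2R, with 3. A run of 17 at chr3L:5601420-5631714 was mixed with 13 stable peaks, including the strongest peak of the list at 137-fold.

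The largest stretch, chr3L:17971897-18031703, held 47 near peaks (3.27% of all) over 59.8 kb. It also held 22 stable peaks and 24 peaks of the +6 h list. The near peaks covered 20.8% of it and the stable peaks 20.9%. Near peaks there had a median fold of 6.49, with quartiles of 4.91 and 8.16, which is close to the median of 6.38 over all of them. The stable peaks had a median of 21.3 and reached 126. Of the 47, 26 lay within 500 bp of a stable peak, 11 had at least 10-fold enrichment and 6 had a higher fold than their nearest stable peak. Over all 1437 near peaks these counts were 310 (21.6%), 282 (19.6%) and 138 (9.60%). Larval-only and stable peaks lay interspersed over this stretch.

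The strongest larval-only peak in the whole list lay there. It was chr3L:17984799-17985358, 560 bp wide, with a fold of 48.2 and a -log10 q of 169, rank 70 among all 4965 peaks. It had 11 stable peaks within 10 kb, of which the nearest had a fold of only 4.85 and lay 1064 bp away. Its neighbour chr3L:17985516-17986085 was at 28.6-fold, 337 bp from the same stable peak. Stronger stable peaks stood farther out, at 35.7-fold 1413 bp to the left of the strongest near peak and at 20.4-fold 1590 bp to its right. This near peak had a higher fold than each of the 11 stable peaks within 10 kb, whereas its neighbour was below that at 35.7-fold and another at 35.5-fold.

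The next strongest were on other arms or in another stretch. The near peak chr3R:13505371-13505693 was at 46.3-fold, 313 bp from a stable peak of 38.9-fold. On 3L, chr3L:5623045-5623292 was at 42.5-fold beside a stable peak of 56.3-fold, and chr2L:19161349-19161963 was at 42.0-fold, 2667 bp from one of 50.6-fold. These were the 4 strongest larval-only peaks of all.

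The remaining members of the top 10 lay on both sides of their stable peak in strength. The near peak chr3R:26515064-26515388 was at 33.6-fold beside a stable peak of 10.4-fold. The near peak chr3R:5711594-5711981 was at 32.1-fold, 277 bp from a stable peak of 45.9-fold. Folds of 26.6, 25.8 and 25.6 were found at chr2L:18664747-18665122, chr2L:7909466-7910376 and chrX:1214772-1215438, each within 768 bp of a stronger stable peak. Of the top 10, 4 had a higher fold than their stable peak and 7 lay within 500 bp of it. All 32 near peaks at 20-fold or more were at least 201 bp wide, with a median of 435.5 bp, and 13 had a higher fold than their stable peak.

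By the rule, each near peak has a +6 h peak in its surroundings. The nearest one lay 2155 bp away in the median and never closer than 26 bp. It was within 250 bp of 107 near peaks (7.45%) and within 500 bp of 245 (17.0%), against 18 far peaks (0.655%) within 500 bp. For 58 near peaks (4.04%) the nearest +6 h peak was 1 of the 411 that overlap no -6 h peak, and 14 of these lay within 500 bp of it (0.974%), against 18 far peaks (0.655%). Because a stable site nearby fixes which +6 h peak is nearest, these shares are held by the rule and are not a comparison of the classes.

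The numbers in the peak names run by position and skip 443 of 1653 at +6 h and 1215 of 6180 at -6 h, so some numbered peaks are not in the lists used here. Where no number is skipped between the +6 h peaks that flank a near peak, no numbered +6 h peak can lie on it. This held for 853 near peaks (59.4%) and 1229 far peaks (44.7%). Under the rule a near peak has a +6 h peak close by, which leaves less room for skipped numbers. These shares are therefore not a comparison of the classes. The median fold of near peaks was 6.35 where no number was skipped and 6.40 elsewhere. No number was skipped around 36 of the 47 near peaks in the largest stretch and around 3 of the top 10. These 3 were the pair at chr3L:17984799-17985358 and chr3L:17985516-17986085 and the near peak at chr3L:5623045-5623292. For the other 7 of the top 10, a skipped +6 h number could lie on the peak.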

How the data were processed

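EcR binding was measured by CUT&RUN in 4 libraries, 2 at -6 h and 2 at +6 h. The submitters' processing notes name the build dm3 and the tools MACS2 2.1.1.20160309, bedtools 2.25.0, Bowtie2 2.2.8, Picard 2.2.4 and SAMtools 1.3.1, and the peak names state that replicates were merged. The authors deposited per peak a score, a fold enrichment, which is a ratio, and the -log10 of a q-value. The score is 10 times the -log10 q to within 1, as the deposited values show. Width equals end minus start plus 1, so starts were read as counted from 1. The 8 RNA columns were not used, because genes carry no positions in dm3, so the planned RNA and motif comparisons were not run. Peaks were classed in Python 3.11.15 with pandas 2.3.3, and the rule was tested on simulated peaks and checked with bedtools 2.31.1. Overlap means 1 bp or more. Depth is unknown. Named regions are the 10 near peaks with the highest fold, the 5 nearest to and 5 farthest from a stable peak, the 5 far peaks just outside the limit, and the 5 stable peaks with most near peaks (ties by fold). The stretches named were chosen after their values were seen. The members and these rules were chosen with earlier results of these data known.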

Additional observations from a re-analysis of the deposited data

How the results depend on the processing

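The number of near peaks, 1437, stayed within 1.5 times under limits of 5 kb (1091) and 20 kb (1852), with distances between summits (1417), with overlap of 50% of the shorter peak (1435) and with gaps up to 500 bp counted as shared (1221). It fell to 556 with -6 h peaks at -log10 q of at least 10 and to 523 with both lists so limited, and was 853 without skipped +6 h numbers, an alternative chosen after seeing the data. The near share of larval-only peaks, 34.3%, was 26.1% at 5 kb, 44.3% at 20 kb, 31.1% with the 500 bp gap, 44.7% with the limited -6 h list and 41.0% without skipped numbers. It was 33.9%, 34.2% and 35.7% with summits, 50% overlap and both lists limited. The share without skipped numbers is partly set by the rule, which places a +6 h peak close to each near peak. Median folds of near, far and stable peaks were 9.92, 9.00 and 17.6 in the limited -6 h list, and median widths 297, 278 and 418.5 bp, in the same order as without the limit, which removes weak peaks by construction. No paired analysis was possible because replicates of a stage were merged before peaks were called. For the same reason no replicate could be left out. The RNA alternatives were not run.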
